A study of Mus musculus with 17 samples.

Results

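The transcripts of 6 mouse genes of the neurotrophin system, Ngfr, Sort1, Ntrk2, Ntrk3, Bdnf and Ntf3, were followed in 17 kidney libraries, out of 35971 genes that the deposited transcripts add up to. The members were chosen on measured values of these libraries, above all because Ngfr was nearly absent without the PRCC-TFE3 fusion, so every comparison of a member with kidneys that lack the fusion is given as a description and without a test. All mice carried a Rosa26 knockin in which a stop cassette (lSl) precedes PRCC-TFE3, the chimeric transcription factor of a TFE3-rearranged renal cell carcinoma. In 13 kidneys the cassette was removed by KSP-Cre, a Cre driven by the Cadherin 16 promoter in kidney epithelial cells. These were 3 kidneys with the fusion alone (KI), 4 that also carried Hif1α f/f (KI/Hif1α KO), 3 with Hif2α f/f (KI/Hif2α KO) and 3 with both floxed genes (KI/DKO). The 4 remaining kidneys, Cre(-), carried the silent knockin without Cre, and 2 of them, replicates 1 and 2, also carried Hif1α f/f. The labels give neither age nor sex. The RNA came from whole kidney, in which cells without Cre activity keep the silent allele, and in such bulk RNA fewer cells of a type and less RNA per cell cannot be told apart.

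Neurotrophins are secreted growth factors that are made as proforms and cut to the mature protein. Mature BDNF and NT-3, the products of Bdnf and Ntf3, act through the receptor tyrosine kinases TrkB (Ntrk2) and TrkC (Ntrk3), whereas the p75 receptor (Ngfr) binds all mature neurotrophins and, together with sortilin (Sort1), binds the proforms. The system is best known from the survival and death of neurons, and p75 is also a familiar marker of Schwann cells and of neural crest derivatives. Ntrk2 and Ntrk3 each encode a full-length receptor and truncated receptors that lack the kinase domain.

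The genes lie apart from each other in the genome (GRCm38, GENCODE M21). Ngfr spans chr11:95568818-95587735 on the minus strand and Ntf3 chr6:126101412-126166910 on the minus strand, and neither overlaps another annotated gene. Sort1 spans chr3:108284082-108361511 on the plus strand, Ntrk2 chr13:58806569-59133970 on the plus strand, Ntrk3 chr7:78175959-78738012 on the minus strand and Bdnf chr2:109674700-109727007 on the plus strand. These overlap 2, 4, 4 and 1 other annotated genes, antisense genes among them for each, and since the strand setting of the counting is not given in the sources used here, some of their reads may belong to those neighbours.

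The sequence upstream of Ngfr is shown because this gene carries the contrast between kidneys with and without the fusion. It covers the 213 bases before both annotated starts (RefSeq, GRCm38.p6, chr11:95587736-95587948, minus strand, 5′ to 3′). The capitals mark ACGTG, 1 form of the core letters of the element that HIF proteins bind. The form GCGTG was neither searched for nor marked.
Ngfr upstream: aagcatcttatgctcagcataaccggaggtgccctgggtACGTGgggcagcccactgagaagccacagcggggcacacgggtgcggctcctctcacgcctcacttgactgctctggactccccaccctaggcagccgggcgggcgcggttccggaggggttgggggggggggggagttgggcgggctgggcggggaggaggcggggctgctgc
The letters CACGTG, a short form of the sites bound by TFE3 and its relatives, and the M-box letters TCACGTGA and TCATGTGA were not in the 300-base Ngfr promoter window on either strand, whereas ACGTG occurred 1 time, 211 bases before the RefSeq start. CACGTG contains ACGTG and is contained in TCACGTGA. Over all 32851 promoter windows of the same length, 7.15% held CACGTG, 0.974% TCACGTGA, 0.986% TCATGTGA and 19.6% ACGTG. Of the 6 members, 4 had promoter entries, and among these CACGTG was found only in 1 of the 2 Ntf3 windows, 231 bases before the start. The Ntrk2 window held none of the motifs, and 2 of the 7 Bdnf windows held ACGTG.

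The sequences that tell the receptor isoforms apart are shown because truncated Trk receptors lack the kinase, and reads over these stretches belong to one isoform and not the other. In each line the lower-case bases are coding sequence shared by both isoforms and the capitals are the bases of the named isoform alone (GRCm38). Ntrk2-202, a truncated TrkB of 476 codons, shares its first 1394 coding bases with full-length Ntrk2-201 of 821 codons and then has 34 coding bases of its own. Ntrk3-202, a truncated TrkC of 612 codons, shares 1585 coding bases with full-length Ntrk3-201 of 825 codons, and the first 60 of its 251 own bases are printed. Sort1-203 differs from Sort1-201 by an insertion of 99 bases, or 33 codons, after 2244 shared coding bases.
Ntrk2-202, capitals at chr13:58932024-58932057: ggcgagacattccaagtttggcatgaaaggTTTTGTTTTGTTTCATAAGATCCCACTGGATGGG
Ntrk2-201, capitals at chr13:58985803-58985836: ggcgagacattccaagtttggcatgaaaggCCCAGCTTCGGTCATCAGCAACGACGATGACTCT
Ntrk3-202, capitals at chr7:78304367-78304426: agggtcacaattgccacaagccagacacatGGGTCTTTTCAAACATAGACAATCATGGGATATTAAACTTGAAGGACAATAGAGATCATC
Ntrk3-201, capitals at chr7:78260355-78260414: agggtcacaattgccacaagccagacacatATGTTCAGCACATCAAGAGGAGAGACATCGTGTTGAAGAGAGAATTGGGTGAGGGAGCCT
Sort1-203, capitals at chr3:108355472-108355570: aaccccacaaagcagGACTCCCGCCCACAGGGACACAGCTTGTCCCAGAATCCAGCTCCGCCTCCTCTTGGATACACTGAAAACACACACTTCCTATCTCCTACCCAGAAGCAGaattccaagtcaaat

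The libraries held 16504419 to 24668827 expected counts each. Gpnmb, a known target of TFE3 and related factors, checked the labels, with 15 to 40 counts in the Cre(-) kidneys and 53272 to 273898 counts in the 13 fusion kidneys. Whole-gene counts cannot show the loss of floxed exons: Hif1a was at 163 to 198 CPM (counts relative to library sizes scaled by TMM) in KI/Hif1α KO and 184 to 232 in KI, and Epas1, which encodes Hif2α, at 136.5 to 149 in KI/Hif2α KO and 173 to 192 in KI. Neither Hif1a (edgeR log2 fold change -0.21, SE 0.13, adjusted p = 0.372) nor Epas1 (-0.33, SE 0.09, adjusted p = 0.0788) passed the threshold of 0.05. The kidneys expressed tubule genes, but the summed level of 6 proximal tubule markers was 10160 to 11960 CPM in Cre(-) and 914 to 2393 CPM in the fusion kidneys. KI replicate 2 stood apart in 6 adipocyte markers, which summed to 1742 CPM there and to 6.16 to 254 CPM in the other 16 libraries.

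Ngfr, the p75 receptor, was nearly absent from the Cre(-) kidneys and abundant in every kidney with the fusion. The Cre(-) kidneys held 33, 35, 35 and 46 counts, or 2.26, 1.87, 2.32 and 2.90 CPM. The KI kidneys held 427, 369 and 296 CPM, the KI/Hif1α KO kidneys 188, 259, 198 and 287, the KI/Hif2α KO kidneys 246.5, 241 and 309, and the KI/DKO kidneys 296, 248 and 281. The lowest fusion kidney thus lay far above the highest Cre(-) kidney. The fitted log2 fold change over Cre(-) was 7.28 (SE 0.21), or 156-fold, in KI, 6.64 (SE 0.20), or 99.7-fold, in KI/Hif1α KO, 6.83 (SE 0.21), or 114-fold, in KI/Hif2α KO and 6.88 (SE 0.21), or 118-fold, in KI/DKO. These values chose the gene and are given as a description. Only 52 of the 17011 genes tested had a larger log2 fold change in KI.

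**Figure D1:**
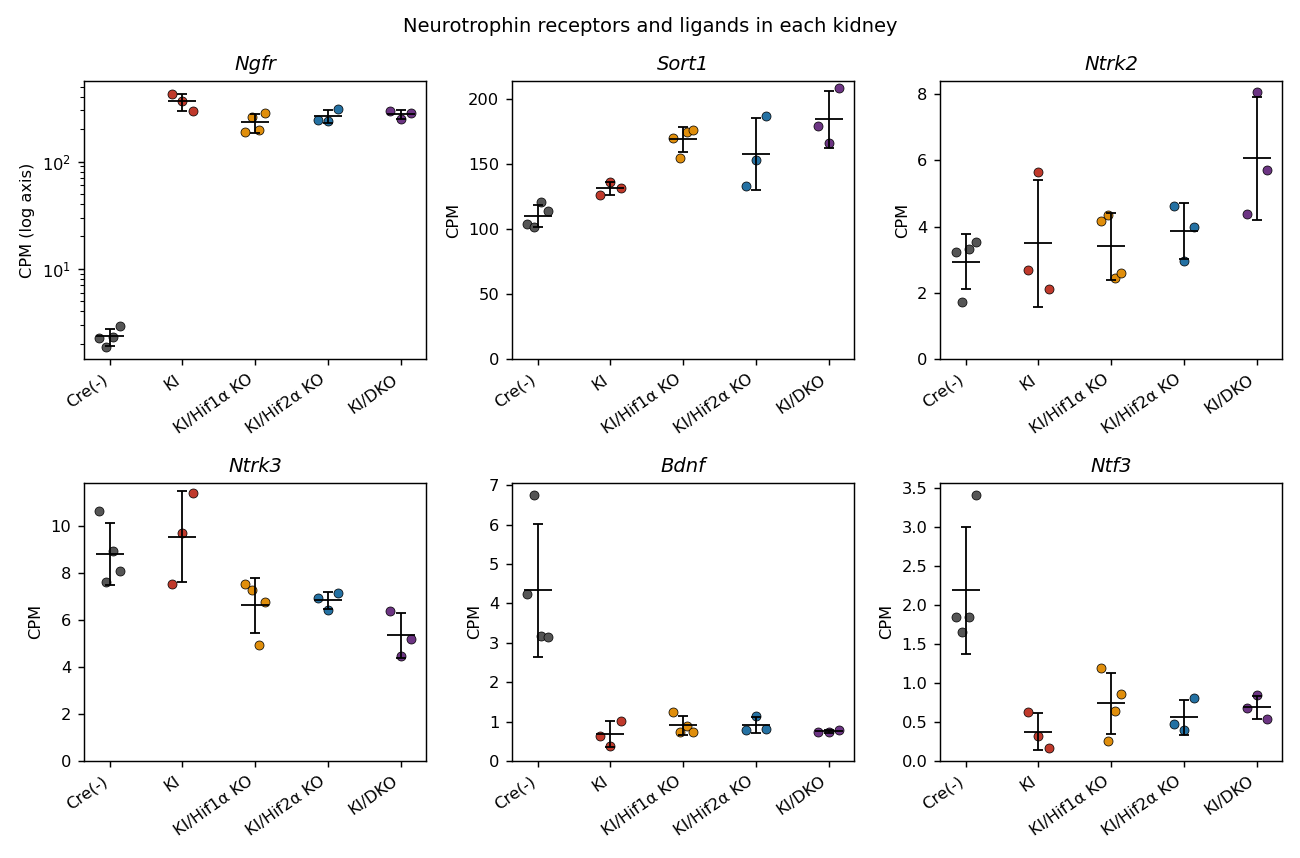
Level of each member in CPM in every kidney, grouped by genotype; points are kidneys, the horizontal bar is the group mean and the whiskers are the SD (n = 4, 3, 4, 3 and 3 from left to right). The axis of Ngfr is logarithmic and the others start at 0. Ngfr lies at 1.87 to 2.90 CPM in Cre(-) and at 188 to 427 CPM in the 13 fusion kidneys, Bdnf and Ntf3 are lower in every fusion kidney than in every Cre(-) kidney, and Ntrk2 overlaps between Cre(-) and KI.

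The other members moved far less, or the other way. Sort1 was 110.1 ± 8.81 CPM in Cre(-) (SD, n = 4) and 132 ± 4.89 in KI (SD, n = 3), a log2 fold change of 0.26 (SE 0.11). Ntrk2 (0.25, SE 0.36) and Ntrk3 (0.12, SE 0.18) overlapped between the groups. The ligand genes were lower, by -2.67 (SE 0.36) for Bdnf and -2.53 (SE 0.51) for Ntf3. The ranges of Ngfr, Sort1, Bdnf and Ntf3 did not overlap between KI and Cre(-). In this contrast 60.9% of the genes tested passed the threshold, which is another measure. The share of all genes without overlap was not computed, here or for any other pair of groups. Nothing is read from these members because the contrast chose them.

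The scale mattered for the small differences. TMM scaling put the median log2 ratio of all genes tested, KI over Cre(-), at 0.03, library totals put it at 0.37 and TPM at 0.50. Relative to those medians Sort1, at 0.26, 0.60 and 0.72, was above by nearly the same amount on each scale. Ntrk3, at 0.12, 0.46 and 1.54, stood apart only in TPM, which weighs each transcript by its length. On TMM-scaled counts the all-gene calls split into 5381 higher and 4981 lower, and on library totals into 8546 and 2991.

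TPM compares genes per length. In Cre(-) kidneys Sort1 was the leading receptor gene of the 4, at 17.0 to 20.4 TPM, followed by Ntrk3 at 1.75 to 2.97, whereas Ngfr (0.659 to 0.894 TPM) and Ntrk2 (0.394 to 0.809 TPM) overlapped. In the fusion kidneys Ngfr led at 78.9 to 198 TPM, Sort1 followed at 28.5 to 52.5, then Ntrk3 at 2.35 to 9.39 and Ntrk2 at 0.589 to 2.16. Ngfr made up 3.08% to 4.12% of the summed TPM of the 4 receptor genes in Cre(-) and 66.1% to 84.7% in the fusion kidneys. By TPM it ranked between 13921 and 14705 among all genes in Cre(-) kidneys and between 656 and 1738 in fusion kidneys. The ligands together reached 2.49 to 3.67 TPM in Cre(-) and 0.560 to 1.79 TPM in the fusion kidneys.

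Among the fusion kidneys, Ngfr was highest in KI. Group means were 364 ± 65.7 CPM in KI (SD, n = 3), 275 ± 24.5 in KI/DKO (n = 3), 266 ± 37.6 in KI/Hif2α KO (n = 3) and 233 ± 47.7 in KI/Hif1α KO (n = 4), and neighbours in this order overlapped. KI and KI/Hif1α KO, the ends of the order, did not overlap, at 296 or more and 287 or less. Ngfr was lower in KI/Hif1α KO than in KI by a log2 fold change of -0.64 (SE 0.16, edgeR adjusted p = 0.0309), and it was the 1 member of 6 that passed in this comparison, in which 5.44% of all genes did. The fold changes of KI/Hif2α KO (-0.46, SE 0.17, adjusted p = 0.168) and KI/DKO (-0.40, SE 0.17, adjusted p = 0.131) pointed the same way and missed the threshold. The KI kidneys enter all 3 comparisons and also the contrast that chose Ngfr. The KI/Hif1α KO call passed in 3 of the 7 fits that left out 1 library and was lost without KI replicate 1 (adjusted p = 0.104), KI replicate 2 (0.0851), KI/Hif1α KO replicate 1 (0.088) or replicate 3 (0.0991). With only KI and KI/Hif1α KO fitted, the adjusted p was 0.104.

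KI/Hif1α KO and KI/Hif2α KO did not differ detectably from each other in Ngfr (-0.19, 95% interval -0.54 to 0.16, adjusted p = 0.621). No member passed in that comparison by edgeR, none had an unadjusted p under 0.05 and DESeq2 called none, while 0.429% of all genes passed. Averaged over the other HIF gene, loss of Hif1α was accompanied by a log2 difference of -0.30 (SE 0.12, adjusted p = 0.154) and loss of Hif2α by -0.11 (SE 0.12, adjusted p = 0.605). The interaction of both losses was 0.70 for Ngfr (SE 0.23, 95% interval 0.18 to 1.21) with an unadjusted p = 0.00953 and an adjusted p = 0.73. The interaction passed for 0 of the 17011 genes by edgeR, or 0%, although 1013 had an unadjusted p under 0.05, Ngfr alone among the members, and DESeq2 called 31 genes and no member.

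**Figure D2:**
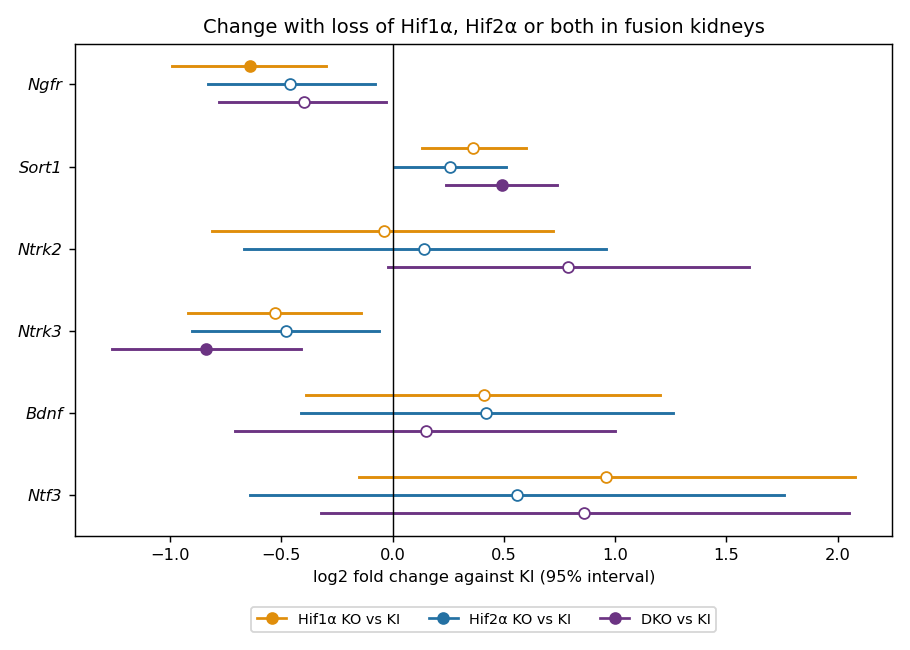
Log2 fold change of each member against KI (x axis) for KI/Hif1α KO, KI/Hif2α KO and KI/DKO kidneys, fitted with edgeR to TMM-scaled counts; lines are 95% intervals and filled points passed the adjusted threshold of 0.05. Filled are Ngfr in KI/Hif1α KO (-0.64), Sort1 in KI/DKO (0.49) and Ntrk3 in KI/DKO (-0.84), whereas the intervals of Bdnf and Ntf3 cover 0 throughout.

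Markers of other cells that carry p75 were measured beside Ngfr. Of 8 Schwann cell markers 4 were under 1 CPM in every library, Sox10, Pmp2 and Gfra3 among them, Pmp2 was at 0 in all 17 (which allows up to 3 counts per library) and Sox10 had 0 to 12 counts. Their summed level was 119 to 146 CPM in Cre(-), 86.3 to 208 in KI and 103 to 154 in the other fusion kidneys, ranges that overlap. Of the 4 Schwann cell markers that could be tested, Cdh19 (1.55, SE 0.59, adjusted p = 0.0321) and Mbp (0.34, SE 0.14, adjusted p = 0.042) were higher in KI than in Cre(-), 1 was lower and 1 did not pass. Summed levels of 6 follicular dendritic and lymphoid stromal markers were 12.1 to 15.6 CPM in Cre(-) and 20.1 to 92.2 in the fusion kidneys. Of the 5 that could be tested, Cxcl13 was higher in KI (4.51, SE 0.55, adjusted p = 3.88e-06) and Cr2, a follicular dendritic cell marker, was lower (-1.36, SE 0.42, adjusted p = 0.0116), while 3 did not pass. Against Cre(-), 2 of these 5 were higher and 1 lower in KI/Hif1α KO. In KI/Hif2α KO and in KI/DKO 3 were higher and 0 lower. The 8 neuron markers summed to 6.38 to 9.72 CPM in Cre(-) and 10.6 to 19.5 in fusion kidneys, and 3 of them, Th, Dbh and Snap25, were under 1 CPM in every library. Of the 5 neuron markers tested, 4 were higher and 0 lower in KI than in Cre(-), where 60.9% of all genes passed. The same counts held in each other fusion group against Cre(-). For those groups against Cre(-) the share of all genes that passed was not computed. This also holds for the counts of follicular dendritic and lymphoid stromal markers there. The 8 fibroblast and pericyte markers summed to 330 to 397 CPM in Cre(-) and 667 to 1084 CPM in fusion kidneys, and the 6 macrophage markers to 127 to 154 and 654 to 1404. Most of the macrophage sum in KI was Cd68, at 1061 to 1151 CPM there and 3.24 to 5.76 in Cre(-), and 4 other macrophage markers were also higher, while Csf1r did not pass (-0.21, SE 0.09, adjusted p = 0.0603). Against KI, Cd68 was lower in KI/Hif1α KO (-0.93, SE 0.19, adjusted p = 0.0166), where Mrc1 (0.60, SE 0.13, adjusted p = 0.0177) and Adgre1 (0.70, SE 0.18, adjusted p = 0.0364) were higher. The part of the lists that moved with Ngfr in its level was not tested.

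Gpnmb moved with the genotypes too. Within the fusion kidneys Gpnmb was lower in KI/Hif1α KO than in KI (-1.35, SE 0.34, adjusted p = 0.0318) and in KI/DKO (-1.80, SE 0.37, adjusted p = 0.00824). Set against it, Ngfr amounted to 1.89 to 3.28 CPM per 100 CPM of Gpnmb in KI, 3.61 to 5.74 in KI/Hif1α KO, 2.71 to 4.98 in KI/Hif2α KO and 4.62 to 9.02 in KI/DKO. The ratio was thus higher in each KI/Hif1α KO and KI/DKO kidney than in any KI kidney, a difference that was not tested.

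Sort1 encodes sortilin, a Vps10-domain receptor that sorts proteins between the Golgi and endosomes and binds proneurotrophins at the cell surface. Cre(-) kidneys held 104, 102, 121 and 114 CPM and KI kidneys 127, 136 and 132. The KI/Hif1α KO kidneys held 170.1, 155, 174 and 177 CPM, the KI/Hif2α KO kidneys 133, 153 and 187, and the KI/DKO kidneys 179, 166 and 208.5. Every fusion kidney was above every Cre(-) kidney, and every KI/Hif1α KO and KI/DKO kidney was above every KI kidney. How many of all genes separate in this way was not computed.

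In KI/DKO, Sort1 was higher than in KI by 0.49 on the log2 scale (SE 0.12, 95% interval 0.24 to 0.74, adjusted p = 0.0146). It shared this with Ntrk3, so 2 of 6 members passed, where 12.7% of all genes did. Without KI/DKO replicate 3 the adjusted p of Sort1 was 0.0751, and in the other 5 such fits it passed, as it did with only KI and KI/DKO fitted (0.0405). In KI/Hif1α KO the difference was 0.36 (SE 0.11, adjusted p = 0.0638 by edgeR and 0.0205 by DESeq2), and in KI/Hif2α KO 0.26 (SE 0.12, adjusted p = 0.231). Over the 13 fusion kidneys, loss of Hif1α went with a difference of 0.29 (SE 0.08, adjusted p = 0.0484), the 1 member that passed where 4.36% of all genes did, and this call held in 2 of the 13 fits that left out 1 library (adjusted p from 0.0313 to 0.138). It was also lost on library totals (0.0509), without the low-count filter (0.0614) and with only the 4 fusion groups fitted (0.0757).

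Ntrk3, the TrkC receptor gene, was measured with few reads, at 85 to 200 counts per library. The Cre(-) kidneys held 10.6, 7.60, 8.94 and 8.08 CPM and the KI kidneys 7.53, 9.69 and 11.4. The KI/Hif1α KO kidneys held 7.53, 7.27, 4.93 and 6.75 CPM, the KI/Hif2α KO kidneys 6.95, 6.43 and 7.14, and the KI/DKO kidneys 6.38, 4.48 and 5.17. The KI/DKO kidneys were lower than all KI and all Cre(-) kidneys.

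Against KI, Ntrk3 fell by 0.84 on the log2 scale in KI/DKO (SE 0.19, adjusted p = 0.0135), whereas in KI/Hif1α KO it was -0.53 (SE 0.18, adjusted p = 0.0968) and in KI/Hif2α KO -0.48 (SE 0.19, adjusted p = 0.189). In KI/Hif2α KO against KI no member passed by edgeR or DESeq2, although Ngfr, Sort1 and Ntrk3, 3 of 6, had an unadjusted p under 0.05, and 1.39% of all genes passed. The KI/DKO call was lost without KI replicate 3 (adjusted p = 0.0658), KI/DKO replicate 2 (0.0712) or KI/DKO replicate 3 (0.0557), and with only KI and KI/DKO fitted (0.069). Over the 13 fusion kidneys the difference was -0.44 with loss of Hif1α (SE 0.13, adjusted p = 0.0686) and -0.39 with loss of Hif2α (SE 0.13, adjusted p = 0.0803). In the latter contrast 7.16% of all genes passed and 0 of 6 members did by edgeR, 2 with an unadjusted p under 0.05, while DESeq2 called Ntrk3 (adjusted p = 0.0492).

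Ntrk2, the TrkB receptor gene, was lower still, at 32 to 153 counts per library. The Cre(-) kidneys held 3.22, 1.71, 3.31 and 3.54 CPM, the KI kidneys 2.7, 5.66 and 2.11, the KI/Hif1α KO kidneys 4.18, 4.36, 2.44 and 2.62, the KI/Hif2α KO kidneys 4.62, 2.98 and 4.00, and the KI/DKO kidneys 4.38, 8.06 and 5.71. The KI/DKO kidneys were above all Cre(-) kidneys and overlapped with KI, and the difference from KI was 0.79 (SE 0.37, 95% interval -0.02 to 1.6, adjusted p = 0.174). The highest KI value came from replicate 2, the kidney with 1742 CPM of adipocyte markers. Without that kidney the log2 fold change of KI over Cre(-) was -0.28 in place of 0.25, and KI/DKO exceeded KI by 1.33 (adjusted p = 0.0411).

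The isoform mix of the receptors is given as each class's share of the gene's expected counts, with no test. Nearly all Ntrk2 counts fell on truncated transcripts, 94.9% ± 1.18 in Cre(-) (SD, n = 4) and 96.8% ± 2.38 in the 13 fusion kidneys (SD). Ntrk2-202 alone took 79.3% of the Ntrk2 counts of all libraries, and the full-length class summed to 9.72 expected counts over the 4 Cre(-) kidneys and 28.3 over the 13 fusion kidneys. For Ntrk3, full-length transcripts took 43.9% ± 6.43 of counts in Cre(-), 27.3% ± 2.5 in KI (SD, n = 3), 42.5% ± 10.8 in KI/Hif1α KO (n = 4), 31.6% ± 2.88 in KI/Hif2α KO (n = 3) and 35.3% ± 1.75 in KI/DKO (n = 3). All KI kidneys (24.9% to 29.9%) were below all Cre(-) kidneys (37.1% to 52.6%). Counts weigh long transcripts more, and Ntrk3-201 has 19703 bases against 3977 for Ntrk3-202. By TPM, full-length Ntrk3 took 7.11% to 13.1% in Cre(-) and 2.88% to 3.88% in KI, also without overlap. Transcripts without a complete reading frame took 4.63% to 8.81% of Ntrk3 counts in Cre(-) and 11.5% to 22.3% in the fusion kidneys, ranges that do not overlap, while truncated transcripts took 40.7% to 54.1% and 31.3% to 62.7%. The incomplete transcripts that held counts are shorter than Ntrk3-202, and they held 27.3% to 40.7% of Ntrk3 TPM in Cre(-) and 44.3% to 75.8% in the fusion kidneys. Sort1-201 took 68.2% of all Sort1 counts, Sort1-203 with the extra exon 20.2%, and Sort1-202, which has no complete reading frame, 11.6%. The share of Sort1-203 was 25.6% ± 5.91 in Cre(-) (n = 4) and 18.9% ± 0.324 in KI (n = 3), and both ranges overlapped, at 18.1% to 31.95% and 18.7% to 19.3%. Ngfr has 1 annotated transcript among those listed, Ngfr-201 of 427 codons.

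**Figure D3:**
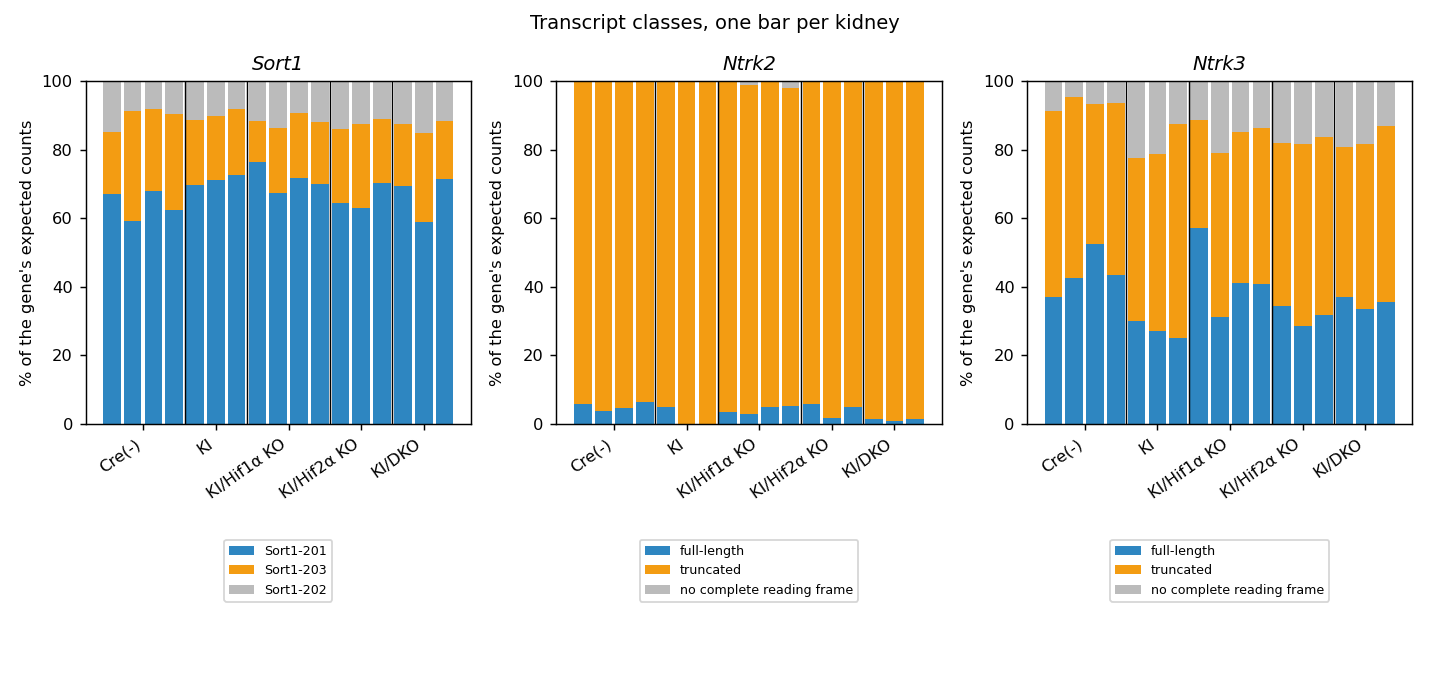
Share of each gene's expected counts (y axis, percent) by transcript class, with 1 bar per kidney and vertical lines between the genotypes. Truncated Ntrk2 transcripts fill 92.8% or more of every bar, full-length Ntrk3 takes 24.9% to 57.2%, and Sort1-201 takes 59.0% to 76.4%.

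Bdnf, which encodes the main TrkB ligand, was lower in every fusion kidney than in every Cre(-) kidney. The Cre(-) kidneys held 62, 126, 48 and 50 counts (4.25, 6.75, 3.18 and 3.16 CPM) and the KI kidneys 11, 7 and 18 counts (0.632, 0.377 and 1.03 CPM). The KI/Hif1α KO kidneys held 14 to 21 counts, the KI/Hif2α KO kidneys 16 to 26 and the KI/DKO kidneys 14 to 16, or 0.727 to 1.26 CPM over these 10 kidneys. The fitted log2 fold changes over Cre(-) were -2.67 (SE 0.36) in KI, -2.27 (SE 0.32) in KI/Hif1α KO, -2.25 (SE 0.35) in KI/Hif2α KO and -2.52 (SE 0.36) in KI/DKO. Among the fusion kidneys no difference in Bdnf passed, with 95% intervals against KI of -0.39 to 1.20, -0.41 to 1.26 and -0.71 to 1.00 for loss of Hif1α, Hif2α and both. Bdnf-205 took 77.0% of the Bdnf counts.

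Ntf3, which encodes NT-3, the preferred ligand of TrkC, behaved likewise. The Cre(-) kidneys held 27, 31, 28 and 54 counts (1.85, 1.66, 1.85 and 3.41 CPM) and the KI kidneys 11, 6 and 3 (0.632, 0.323 and 0.171 CPM). The remaining fusion kidneys held 5 to 22 counts, or 0.260 to 1.20 CPM. The fitted log2 fold changes over Cre(-) were -2.53 (SE 0.51) in KI, -1.56 (SE 0.42) in KI/Hif1α KO, -1.97 (SE 0.48) in KI/Hif2α KO and -1.67 (SE 0.47) in KI/DKO. None of the differences from KI passed, the largest being 0.96 in KI/Hif1α KO (SE 0.51, 95% interval -0.15 to 2.08, adjusted p = 0.288).

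All 7 remaining ligand and receptor genes of the family passed the threshold between KI and Cre(-), where 60.9% of all genes did. This list was chosen with earlier results of these data known, so its values in this contrast are a description. Of the 7, 5 were higher, and 5 of the 7 are described here. Ntf5, which encodes NT-4, another TrkB ligand, held 7 to 22 counts in Cre(-) and 46 to 70 in KI, a log2 fold change of 1.75 (SE 0.29, adjusted p = 8.26e-05), opposite in sign to Bdnf and Ntf3. The sortilin relatives moved apart: Sorcs2, a partner of p75 in proneurotrophin binding, was higher by 2.83 (SE 0.17, adjusted p = 3.48e-09), Sorcs1 by 4.5 (SE 0.39, adjusted p = 1.38e-07) from 1 to 6 counts in Cre(-), and Sorcs3 by 2.7 (SE 0.52, adjusted p = 0.000349). Sorl1 was lower by -1.11 (SE 0.10, adjusted p = 2.37e-07). Sorcs3 was also uneven within Cre(-), at 0.343 and 0.696 CPM in replicates 1 and 2, which carry Hif1α f/f, and 2.52 and 2.59 in replicates 3 and 4, which do not. These are 5, 13, 38 and 41 counts. The split was picked after the values were seen, and a link to the floxed alleles was not tested.

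**Figure D4:**
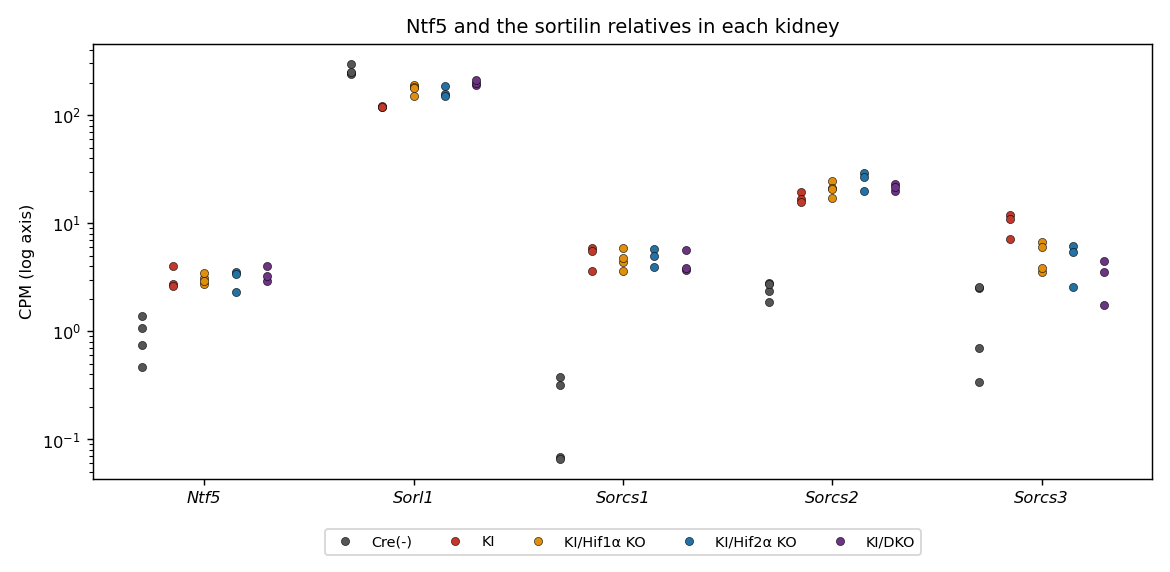
CPM (logarithmic axis) of Ntf5 and the sortilin relatives; each point is 1 kidney, coloured by genotype. Sorcs1 lies at 0.0662 to 0.379 CPM in Cre(-) and at 3.61 to 5.93 in the fusion kidneys, while Sorl1 lies at 118 to 121.5 in KI, under all other groups.

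Sorl1, a Vps10-domain receptor like sortilin, was higher than in KI in each of the 3 groups with a Hif deletion, least firmly with loss of Hif2α alone. It was higher by 0.54 in KI/Hif1α KO (SE 0.10, adjusted p = 0.0106), by 0.46 in KI/Hif2α KO (SE 0.11, adjusted p = 0.0486) and by 0.75 in KI/DKO (SE 0.11, adjusted p = 0.00169). KI kidneys held 118 to 121.5 CPM and the 10 kidneys with a Hif deletion 149 to 212, so the groups did not overlap, and Cre(-) kidneys were higher still at 239 to 298. The KI/Hif1α KO and KI/DKO calls of Sorl1 held in all 7 and all 6 fits that left out 1 library. The KI/Hif2α KO call held in 1 of 6, without KI replicate 1 (adjusted p = 0.0489), and not without KI replicate 2 (0.0921), KI replicate 3 (0.188) or KI/Hif2α KO replicate 1 (0.0675), 2 (0.0759) or 3 (0.124). It was also lost without the low-count filter (0.0531), with the replicate block (0.0588) and with only the groups compared fitted (0.189). No other gene of this list passed against KI.

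Of 71 further genes of the neurotrophin pathway 69 were tested, those 7 included. Between KI and Cre(-) 36 were higher and 17 lower, or 76.8% of those tested, beside the 60.9% of all genes, with a median log2 fold change of 0.26 beside 0.03 over all genes. On library totals 47 were higher and 10 lower. The lists were chosen with earlier results of these data known. Their shares, medians and p-values between KI and Cre(-) are thus a description and do not show a change of the pathway. Genes of p75 partners and adaptors were higher in 9 and lower in 3 of 15, led by Bex1 (4.28, SE 0.16, adjusted p = 4.72e-11) and Bex3 (2.60, SE 0.14, adjusted p = 1.41e-09), which encode small proteins that bind the p75 intracellular domain. Rtn4r, the Nogo receptor gene, was also higher (1.81, SE 0.21, adjusted p = 2.01e-06), and Kidins220, a scaffold of p75 and Trk receptors, was lower (-0.84, SE 0.08, adjusted p = 2.05e-07). Genes of p75 cleavage were higher in 4 of 8, among them the sheddase genes Adam10 (0.99, SE 0.08, adjusted p = 5.31e-08) and Adam17 (0.54, SE 0.07, adjusted p = 5.94e-06), and lower in 2.

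Genes that process proneurotrophins were more often lower on TMM-scaled counts, 5 against 2 higher of 9. The split by direction was not made for single lists on library totals. In this contrast 60.9% of all genes passed, and as the lists were chosen with earlier results known, their shares are a description. The shares were 77.8% for proneurotrophin processing, 73.3% for Trk adaptors and effectors, 85.7% for activity targets and 50% for sorting partners of sortilin. Pcsk6, a proprotein convertase, fell by 4.09 on the log2 scale (SE 0.33, adjusted p = 6.95e-08) and Plat, tissue plasminogen activator, by 1.38 (SE 0.16, adjusted p = 1.93e-06). Among the higher genes was Mmp7, a matrix metalloproteinase that can cut proneurotrophins (8.48, SE 0.68, adjusted p = 5.91e-08, at 0 to 5 counts in Cre(-) and 331 to 1155 in KI). Of 15 Trk adaptors and effectors 9 were higher and 2 lower, with Shc2 at 2.71 (SE 0.28, adjusted p = 6.59e-07) and Frs3 at -1.66 (SE 0.15, adjusted p = 2.46e-07). Of 7 activity targets 4 were higher, Egr1 most (3.22, SE 0.24, adjusted p = 3.34e-08), and 2 lower. Of 8 sorting partners of sortilin 3 were higher, led by the adaptor gene Gga2 (1.67, SE 0.11, adjusted p = 6.33e-09), and 1 lower.

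Within the fusion kidneys few of these genes passed, at shares mostly near those of all genes. In KI/Hif1α KO against KI 7 of 69 passed (10.1%, beside 5.44%), Sorl1 and Plat (0.86, SE 0.15, adjusted p = 0.00874) higher and Egr1, Bex1, Rtn4r, Gga2 and Vps26a lower. In KI/DKO 9 of 69 passed (13%, beside 12.7%), Sorl1 higher and 8 lower, among them Bex1 (-0.80, SE 0.15, adjusted p = 0.0054), Bex3 (-0.47, SE 0.14, adjusted p = 0.0452), Egr1 (-0.93, SE 0.24, adjusted p = 0.023) and Gga2 (-0.52, SE 0.11, adjusted p = 0.0101). In KI/Hif2α KO Sorl1 was the 1 gene that passed (1.45%, beside 1.39%). Over the 13 fusion kidneys 3 of 69 passed for Hif1α, Sorl1 and Plat higher and Bex1 lower, and 3 for Hif2α, Sorl1 higher and Mcl1 and Igf2r lower (4.35% each, beside 4.36% and 7.16%). Of these calls, those of Bex1 against KI and of Plat in KI/Hif1α KO held in every fit that left out 1 library, whereas that of Bex3 in KI/DKO held in 1 of 6, of Egr1 in 3 of 7 and 3 of 6, and of Gga2 in 2 of 7 and 5 of 6, for KI/Hif1α KO and KI/DKO. In KI/Hif1α KO that of Rtn4r held in 1 of 7 and of Vps26a in 2 of 7. Over the 13 fusion kidneys Sorl1 held in all 13 fits for each loss. For Hif1α, Bex1 held in 11 of 13 and Plat in 6. For Hif2α, Mcl1 held in 7 of 13 and Igf2r in 4. On library totals the split was 3 higher and 3 lower in KI/DKO and 5 higher and 0 lower for Hif2α. Between KI/Hif1α KO and KI/Hif2α KO, 0 of 69 passed by edgeR or DESeq2, with 8 at an unadjusted p under 0.05.

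The genes whose level followed that of each member most closely were sought over the 13 fusion kidneys, among 14777 genes with a mean of at least 1 TPM there. As the kidneys share their genotype groups and the genes were picked as the highest of many, the coefficients are a description. For Ngfr these were Arhgap12 (Pearson r 0.946, Spearman rho 0.879), Abcc5 (0.912 and 0.852), Zfp704 (0.910 and 0.912), Lrrtm1 (0.897 and 0.802) and Hoxa10 (0.896 and 0.692). Without the 2 kidneys farthest from the Ngfr median, r was 0.884, 0.828, 0.862, 0.780 and 0.753. For Sort1 they were Tmem30b, Man1c1 and Epn3 (r 0.954 to 0.956), and for Ntrk3 Atp6v0d1, Rchy1 and Aacs (r 0.935 to 0.940). The low-count members gave looser neighbours: Dlc1, Proca1 and Gm29397 for Ntrk2 (r 0.830 to 0.860), Vav3, Capn10 and Trp53inp2 for Ntf3 (r 0.860 to 0.896), and Tmem176a, Tspan33 and Fam83g for Bdnf (r 0.837 to 0.868), of which Tspan33 dropped to 0.358 without the 2 farthest kidneys.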

How the data were processed

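RNA of 17 mouse kidneys was sequenced by the authors from TruSeq stranded mRNA libraries as single-end reads of 75 nucleotides, trimmed with Trim Galore (0.6.6, cutadapt 2.5), aligned with STAR (2.7.9a) and quantified with RSEM. The methods name the human assembly hg38 for the alignment and hg38 or GRCm38 for the annotation, and the deposited tables list mouse transcripts. The authors deposited expected counts per transcript, which are not normalized, and TPM per transcript, which is scaled for length and library total.

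Transcripts were matched to GENCODE M21 (116770 of 119353, 97.8%) and summed to genes, and summed expected counts were rounded. Genes were kept by filterByExpr (minimum count 10; 17011 genes, all 6 members, also with the 13 fusion kidneys alone). One edgeR (4.0.16, R 4.3.3) quasi-likelihood fit of the 5 groups with TMM scaling gave every test, with Benjamini-Hochberg adjustment over all genes and a threshold of 0.05. Intervals of differences use 12 residual degrees of freedom. DESeq2 (1.42.0), other scalings and filters, a replicate block and leaving out each library were tried. Counts were also simulated for KI/Hif1α KO against KI (16794 genes, 199 of them changed). They were drawn with the spread that edgeR estimated, around the same mean in all groups for unchanged genes, and without a replicate effect. The fit called 157 genes, 3.18% of them falsely, and found 86.9% of 4-fold and 66% of 2-fold changes. Of 195 DESeq2 calls there 16.9% were false, and of 155 with the replicate block 6.45%. These rates hold for that setting alone and do not rank the fits on the measured counts. Library totals were 16504419 to 24668827, and floors of 3 counts cover counting error only. Promoters and motifs came from RefSeq (GRCm38.p6). Replicates are labelled as separate libraries, and nothing says that each is a separate mouse.

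Named were the 6 members, other ligands and receptors, up to 4 genes of lowest p per list and comparison, the genotype checks, and the genes most correlated with each member. Single marker genes were named after their values were seen. Some genes that the rule names are not reported here. The members and all gene lists were chosen with earlier results of these data known. Libraries with the same replicate number did not deviate together (31 pairs, r from -0.22 to 0.25, 4 above 0.1), so no pairing was used. No 2 libraries of a group agreed within sampling noise.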

Additional observations from a re-analysis of the deposited data

Results flagged for a closer look

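Cre(-) replicate 4 stood apart in Ntf3, with 3.41 CPM against 1.66 to 1.85 CPM in the other 3 Cre(-) kidneys. Its gap to the next kidney was 0.889 of the range of the group. Among the 12 sets of 4 kidneys looked at in this way chance alone flags about 1 in 20.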

How the results depend on the processing

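Of 817 values compared with an alternative, 694 were kept and 19 changed sign. Tested fold changes were kept if their direction and their side of the threshold held. Values without a test were kept if they moved within their spread. Among the 694 were 61 counts of members and 67 of pathway genes past the threshold. Such counts were kept if they were unchanged or differed by no more than a set ratio. The smallest unadjusted p among the tested ones that changed sign was 0.181. Scaling by library totals in place of TMM, and the weight given to the fits without KI replicate 2, were chosen after seeing the data.

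DESeq2 called 2 members in KI/Hif1α KO against KI, 2 for loss of Hif1α and 1 for loss of Hif2α, and 8, 15, 6 and 11 pathway genes in KI/Hif2α KO, KI/DKO, loss of Hif1α and loss of Hif2α. Over all genes it called 1665, 1015, 544, 1578 and 2079 in KI/Hif1α KO, KI/Hif2α KO, their contrast, loss of Hif1α and loss of Hif2α, against 925, 236, 73, 742 and 1218 by edgeR. Without the low-count filter 0 pathway genes passed in KI/Hif2α KO, 1 for loss of Hif2α and 0 members for loss of Hif1α. Fitting only the groups compared gave 4, 0 and 5 pathway genes in KI/Hif1α KO, KI/Hif2α KO and KI/DKO and 0, 1 (Sort1) and 0 members in KI/Hif1α KO, KI/DKO and loss of Hif1α, with Ngfr in KI/Hif1α KO at -0.64 (adjusted p = 0.104), and 246, 2, 1028 and 132 genes in all in KI/Hif1α KO, KI/Hif2α KO, KI/DKO and loss of Hif1α. Library totals gave 7.64, 0.60 and 0.46 for Ngfr, Sort1 and Ntrk3 in KI over Cre(-), 0 members for loss of Hif1α, and 1 member (Sort1) and 5 pathway genes for loss of Hif2α. With only the Cre(-) kidneys that carry Hif1α f/f, Sort1 was at 0.36 in KI over Cre(-). Truncated Ntrk3 took 35.1% of TPM in the fusion kidneys against 48.2% of counts. The cause was not tested for any of these.

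The replicate block gave 4, 0 and 1 pathway genes in KI/Hif1α KO, KI/Hif2α KO and loss of Hif2α, 479, 76, 19, 466 and 669 genes in all in the order given for DESeq2, and 0.11 for Bdnf in KI/Hif1α KO against KI/Hif2α KO. The samples share only a number, since the median correlation of same-numbered libraries was -0.03 against 0.01 for others and 3 libraries correlated best with their own number.

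Leaving out 1 library at a time, members past the threshold numbered 0 to 1 in KI/Hif1α KO against KI, 0 to 3 in KI/DKO, 0 to 1 each for loss of Hif1α and of Hif2α, and 0 in KI/Hif2α KO and in KI/Hif1α KO against KI/Hif2α KO. Pathway genes numbered 3 to 8, 0 to 5 and 3 to 12 in KI/Hif1α KO, KI/Hif2α KO and KI/DKO, 1 to 6 and 1 to 9 for loss of Hif1α and Hif2α, and 48 to 54 in KI over Cre(-). Ngfr in KI/Hif1α KO against KI ranged from -0.77 to -0.51. Log2 values that changed sign ranged from -0.28 to 0.51 (Ntrk2) and -0.03 to 0.26 (Ntrk3) in KI over Cre(-), from -0.30 to 0.49 (Ntrk2) in KI/Hif1α KO, from -0.11 to 0.68 (Ntrk2) in KI/Hif2α KO and from -0.15 to 0.57 (Bdnf) in KI/DKO against KI, from -0.08 to 0.28 and -0.06 to 0.29 (Bdnf) for loss of Hif1α and Hif2α, and from -0.22 to 0.18 (Bdnf), -0.13 to 0.05 (Ntrk3) and -0.01 to 0.24 (Sort1) in KI/Hif1α KO against KI/Hif2α KO. Bdnf and Ntf3 rest on 3 to 26 counts in a fusion kidney, and detection by count level was not tested.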
